A study of Mus musculus with 8 samples.

Results

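The Notch receptors Notch1, Notch2, Notch3 and Notch4, the ligands Jag1, Jag2, Dll1, Dll3 and Dll4 and the related protein Dlk1 were compared between the fetal ductus arteriosus and the fetal aorta. Members were taken by name: every probe set annotated to exactly 1 of these 10 genes, which gave 20 of the 45037 probe sets that are not controls, and 10 of 18193 genes. All 10 genes had at least 1 probe set, and no probe set with several gene symbols included a member. The arrays were 4 of ductus and 4 of aorta, 1 per pool. Both groups came from untreated fetal mice on day 19 of gestation, of the strain that the labels call CD88 and describe as wild type. Each array took vessel segments pooled from the pups of 1 litter (at most 10). A value is thus a mean over a litter's segments, together with any neighbouring tissue left on them. With 1 array per pool, the spread between arrays holds differences between litters, dissections and arrays together. In such bulk samples, fewer cells of a type and less RNA per cell cannot be told apart.

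Notch receptors are single-pass membrane proteins that bind ligands of the Delta and Jagged (Serrate) families on a neighbouring cell. Binding leads to cleavage by an ADAM metalloprotease and then by gamma-secretase, and the freed intracellular domain joins RBPJ and a Mastermind protein in the nucleus to switch on genes of the Hes and Hey families and Nrarp. In arteries the pathway takes part in arterial identity of the endothelium and in the maturation of smooth muscle, and in mice the loss of Jag1 in smooth muscle leaves the ductus open after birth.

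Values are on the log2 scale, so a difference of 1 is a 2-fold difference. Differences are given as ductus minus aorta and were tested with limma, and adjusted p-values are Benjamini-Hochberg values over all genes, or over all probe sets where single probe sets are discussed. A call is an adjusted p under 0.05. For the gene test each gene was represented by its brightest probe set (the one with the highest mean over the 8 arrays). Signal differs between probe sets for technical reasons, so levels of different genes were not ranked. The median array value was 4.36 to 4.42 and the first quartile 2.74 to 2.86, and a difference measured near the first quartile can be compressed. Over genes, arrays of a tissue correlated at 0.986 to 0.992 and arrays of different tissues at 0.979 to 0.987.

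Of the family, 2 ligand genes passed the test, and both were higher in the aorta. Dll1 was 2.22-fold and Jag2 1.41-fold higher in the aorta, and no member was called higher in the ductus. Of 10 genes, 2 were called, against 3.86% of all genes in either direction and 2.06% in favour of the aorta and 1.8% in favour of the ductus. Every aorta array was above every ductus array for 6 of 10 genes (Notch1, Notch3, Jag1, Jag2, Dll1 and Dll3), against 6.06% of all genes. Notch2 was the 1 member with every ductus array above every aorta array, against 5.23% of all genes. The median difference of the 10 genes was -0.28, and that of all genes was -0.03. An unadjusted limma p under 0.05 was found for 6 of 10 members, against 16.1% of all genes. These were the 2 called genes and, of the 8 members that were not called, Notch1, Notch3, Jag1 and Dll3.

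**Figure D1:**
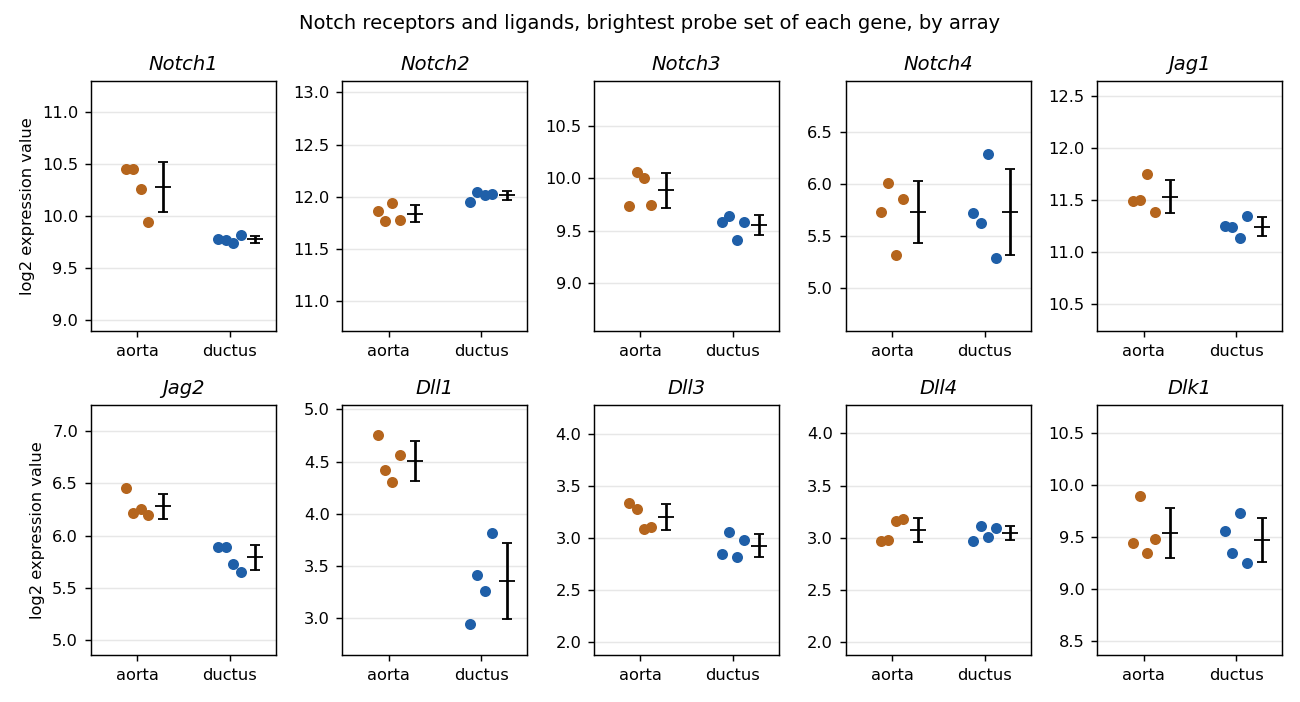
Log2 expression value of the brightest probe set of each of the 10 genes on the 4 aorta arrays (brown) and the 4 ductus arrays (blue), with the mean and SD of each tissue in black. The vertical span is the same in all panels. Dll1 reads 4.30 to 4.75 in the aorta and 2.94 to 3.81 in the ductus, while Notch4, Dll4 and Dlk1 overlap.

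Dll1 encodes a Delta ligand that activates Notch in neighbouring cells. Its single probe set (1419204_at) read 4.75, 4.42, 4.30 and 4.56 on aorta arrays 1 to 4 and 2.94, 3.41, 3.26 and 3.81 on ductus arrays 1 to 4. The tissues did not overlap, and the ductus arrays spread more widely than the aorta arrays (means of 4.51 ± 0.196 in the aorta and 3.36 ± 0.361 in the ductus, SD, n = 4 each). The difference was -1.15 ± 0.185 (SE; 95% interval -1.57 to -0.74; limma adjusted p = 0.00826 over genes and 0.0112 over probe sets). Among the 374 genes called higher in the aorta it ranked 152nd by size. The aorta values lay near the array medians and the ductus values between the first quartiles and the medians, so Dll1 was measured in the lower part of the scale. The call held on leaving out any of the 8 arrays, with adjusted p of 0.00484 to 0.0276. It did not hold without the 2 arrays highest in thymocyte markers, which were left out after seeing the data (-1.0 with 3 arrays a tissue, adjusted p = 0.0578).

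The bases upstream of Dll1 and Jag2, the called members, and of Notch2, whose arrays lay the other way, are shown so that the sequence at each start can be set beside the values. They are from RefSeq on build GRCm38.p6, each with the 250 bases before an annotated start, 5′ to 3′ on the strand of the gene, with CG dinucleotides in capitals. Dll1 has 2 annotated starts, with windows at chr17:15375824-15376073 and chr17:15376933-15377182 on the minus strand, and the probe set does not tell them apart here. The Jag2 window is chr12:112929496-112929745 on the minus strand and the Notch2 window chr3:98013288-98013537 on the plus strand.
Dll1, inner start: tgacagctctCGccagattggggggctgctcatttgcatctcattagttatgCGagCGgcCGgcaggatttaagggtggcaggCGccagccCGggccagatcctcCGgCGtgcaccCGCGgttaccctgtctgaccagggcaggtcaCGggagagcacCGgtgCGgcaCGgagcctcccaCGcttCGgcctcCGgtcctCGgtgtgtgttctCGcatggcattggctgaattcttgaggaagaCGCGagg
Dll1, outer start: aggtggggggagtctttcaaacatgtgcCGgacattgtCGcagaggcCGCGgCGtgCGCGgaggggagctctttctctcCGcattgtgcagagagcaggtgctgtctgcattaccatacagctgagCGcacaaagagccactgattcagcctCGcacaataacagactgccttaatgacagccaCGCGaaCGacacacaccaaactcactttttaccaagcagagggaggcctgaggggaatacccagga
Jag2: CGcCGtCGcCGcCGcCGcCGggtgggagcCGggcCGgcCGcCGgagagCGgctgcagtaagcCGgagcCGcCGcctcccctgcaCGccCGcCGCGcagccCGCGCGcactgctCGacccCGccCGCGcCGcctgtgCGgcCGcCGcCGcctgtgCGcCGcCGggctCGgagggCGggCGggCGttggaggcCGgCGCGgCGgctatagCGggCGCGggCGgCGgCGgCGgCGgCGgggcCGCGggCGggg
Notch2: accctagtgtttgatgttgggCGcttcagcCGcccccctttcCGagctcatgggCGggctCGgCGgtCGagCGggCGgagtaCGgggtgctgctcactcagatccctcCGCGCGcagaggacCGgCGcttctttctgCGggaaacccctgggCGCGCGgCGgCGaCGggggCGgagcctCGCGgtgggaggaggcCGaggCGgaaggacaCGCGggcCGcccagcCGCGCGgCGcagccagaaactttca
The Jag2 window held 54 CG dinucleotides and 87.2% G and C, the Notch2 window 34 and 72.0%, and the Dll1 windows 21 and 13 with 64.0% and 56.0%. Over the 11 windows of the 10 members the median was 16 CG dinucleotides (from 4 in Notch4 to 54 in Jag2), against a median of 6 over all 32851 windows. The letters TGGGAA, the core that RBPJ binds, were searched on both strands: 0 of 11 member windows held them, as against 21.6% of all windows. The letters TATAAA (the TATA box; 12.4% of all windows) and CACGTG (an E-box; 6.0% of all) were searched in the same way and were also in 0 of 11 member windows. These matches describe the windows only.

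Jag2 encodes a Jagged ligand. Its brightest probe set (1426430_at) read 6.46, 6.22, 6.25 and 6.20 in the aorta and 5.89, 5.89, 5.73 and 5.65 in the ductus. The lowest aorta array was 0.31 above the highest ductus array, and the spread within each tissue was small (6.28 ± 0.119 and 5.79 ± 0.122, SD, n = 4 each). The difference was -0.49 ± 0.109 (SE; limma adjusted p = 0.0386 over genes). Tested among all probe sets, the same values did not pass (adjusted p = 0.0590). The call was lost on leaving out any 1 of the 8 arrays (adjusted p of 0.0614 to 0.114), although the difference stayed between -0.53 and -0.43. The second probe set (1426431_at) read 2.97 to 3.46 in the aorta and 2.85 to 3.56 in the ductus, and its tissues overlapped (-0.24 ± 0.184, adjusted p = 0.638).

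Jag1, the Jagged ligand of the arterial wall, had 3 probe sets that all lay lower in the ductus and that differed in size. The brightest (1434070_at) read 11.49, 11.50, 11.75 and 11.38 in the aorta and 11.25, 11.24, 11.13 and 11.35 in the ductus. The tissues did not overlap by a margin of 0.03 and the difference was not called (-0.29 ± 0.112, 1.22-fold higher in the aorta, limma adjusted p = 0.237 over genes). The dimmest (1421105_at) read 4.34, 4.00, 4.29 and 3.99 in the aorta and 3.32, 3.59, 2.87 and 3.56 in the ductus. It was called, at -0.82 ± 0.176 (adjusted p = 0.0426 over probe sets), while no array put it above the array median. Of the 8 fits that each leave out an array, only that without ductus replicate 2 called it (adjusted p of 0.0490 there and up to 0.108 in the others). The middle probe set (1421106_at) lay at -0.58 ± 0.312 (adjusted p = 0.468), with ductus array 3 lowest at 6.11 and ductus array 4 at 7.66, within the aorta's 7.21 to 8.09.

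The other ligands showed small differences or none that could be resolved. Dll3, a divergent Delta protein known to act against Notch signalling within the cell, read 3.09 to 3.34 in the aorta and 2.82 to 3.06 in the ductus (-0.28 ± 0.108, limma adjusted p = 0.239). All 8 values lay below the array medians. Dll4, the Delta ligand of arterial endothelium, had no array above the array median on either of its 2 probe sets, and 7 of 8 arrays lay below the first quartile on the dimmer one. Its brightest probe set differed by -0.03 ± 0.101 (95% interval -0.25 to 0.20, adjusted p = 0.932). Dlk1, a membrane protein of the Delta family that lacks the usual Notch-binding domain and is made in many fetal tissues, read 9.35 to 9.89 in the aorta and 9.25 to 9.73 in the ductus. Its 2 probe sets both differed by -0.06 (standard errors of 0.156 and 0.159), with a 95% interval of -0.41 to 0.28 for the brightest in the gene test.

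Notch1, a receptor of endothelium and many other cells, had the largest difference among the receptors and did not pass. Its brightest probe set (1418634_at) read 10.45, 10.45, 10.26 and 9.94 in the aorta and 9.78, 9.77, 9.74 and 9.82 in the ductus. The ductus arrays lay within 0.08 of each other, while aorta array 4 was the lowest of its tissue and the nearest to the ductus. The difference was -0.50 ± 0.129 (1.41-fold higher in the aorta, limma adjusted p = 0.0725). Without aorta replicate 4 it was -0.61 and called (adjusted p = 0.0185), and without each of the other 7 arrays it was not. The second probe set (1418633_at) differed by -0.35 ± 0.128, also without overlap (adjusted p = 0.245 over probe sets). As the mean of both probe sets, Notch1 was called (-0.42, adjusted p = 0.0193).

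Notch3, the receptor of arterial smooth muscle and pericytes, read 9.74, 10.06, 10.00 and 9.75 in the aorta and 9.58, 9.64, 9.41 and 9.58 in the ductus on its brightest probe set. The difference was -0.33 ± 0.116 (limma adjusted p = 0.180), and the other probe set gave -0.44 ± 0.168 with 1 aorta array (9.18) inside the ductus range (adjusted p = 0.278 over probe sets). Neither was called. Smooth muscle markers, listed with the cell types, lay the other way, with a mean of 9.07 to 9.58 in the aorta and 9.88 to 10.35 in the ductus.

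Notch2, which acts with Notch3 in vascular smooth muscle, read 11.86, 11.77, 11.94 and 11.78 in the aorta and 11.95, 12.05, 12.02 and 12.03 in the ductus. The tissues were separated by 0.01, and the difference of 0.18 ± 0.0928 was not called (95% interval -0.03 to 0.38, limma adjusted p = 0.402). The interval of Notch1, -0.79 to -0.21, lay wholly below that of Notch2. The second Notch2 probe set (1451889_at) gave -0.10 ± 0.248 with overlap, at 2.30 to 3.57 over the 8 arrays, below the array medians throughout. Notch4, a receptor largely of endothelium, read 5.32 to 6.01 in the aorta and 5.29 to 6.29 in the ductus, with equal means (0.00 ± 0.220, 95% interval -0.49 to 0.49). Its second probe set differed by 0.24 ± 0.254, and the third lay below the first quartile on all 8 arrays.

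**Figure D2:**
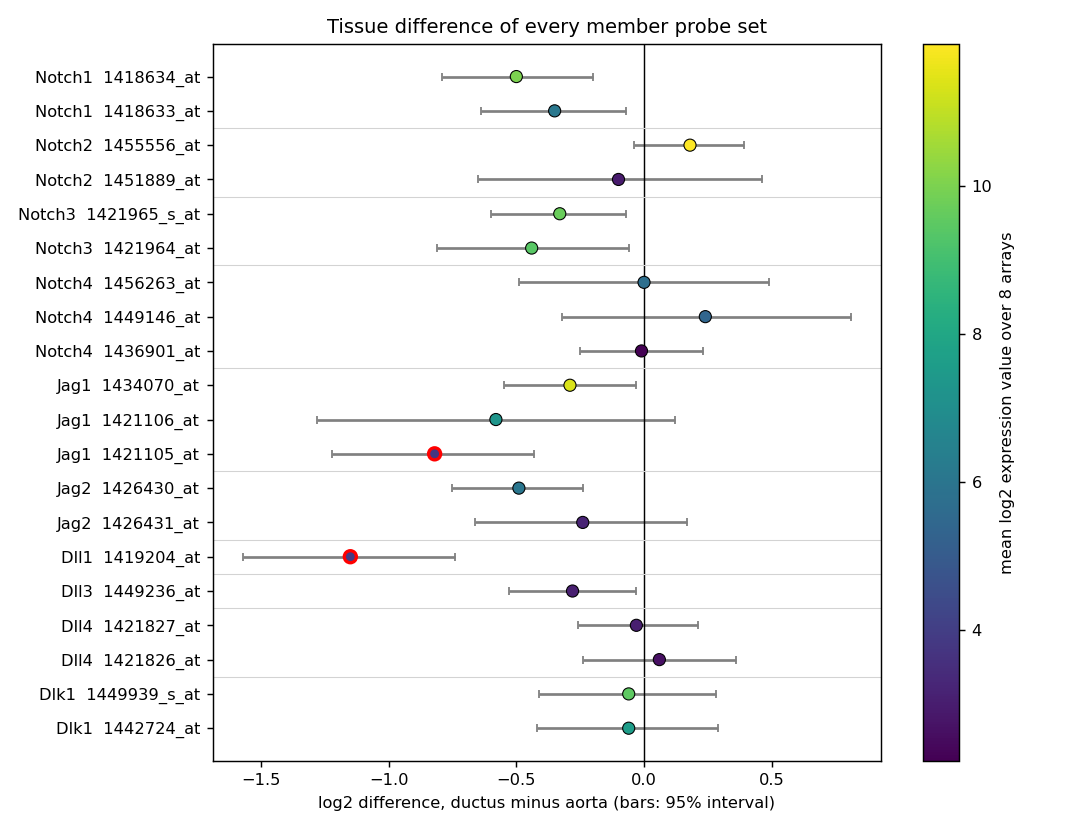
Log2 difference, ductus minus aorta, of all 20 probe sets by gene, with 95% intervals from limma, and the mean level over the 8 arrays as the fill colour. The 2 probe sets called over all probe sets are ringed in red: 1419204_at of Dll1 at -1.15 and 1421105_at of Jag1 at -0.82.

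Agreement among the probe sets of a gene was set beside the share over all genes. Of the 8 members with several probe sets, 5 (Notch1, Notch3, Jag1, Jag2 and Dlk1) had all of them on the same side of 0. Of the 9010 genes with several probe sets 51% did, and 8 members are too few to tell these shares apart. The exceptions Notch2, Notch4 and Dll4 had differences of at most 0.24 in size on any probe set. Over the 20 probe sets, 17 had a lower mean in the ductus, 1 of them (Notch4) by less than rounding shows, and 2 were called, both higher in the aorta (2.46% of all probe sets were called, 1.2% higher in the aorta and 1.26% higher in the ductus), and every aorta array was above every ductus array in 8 of 20 (4.94% of all). Whether probe sets of a gene gave unequal tissue differences was tested on the within-array difference of each further probe set from the brightest. Limma called 0 of 10 member pairs (0.806% of 16752 pairs in all), and 1 pair had an unadjusted p under 0.05. That pair was the dimmest against the brightest Jag1 probe set (-0.53 ± 0.169, unadjusted p = 0.00992, adjusted p = 0.253).

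The rest of the pathway had 1 call. Of 50 measured genes from 6 lists, 0 were called higher in the ductus (1.8% of all genes) and 1 higher in the aorta (2.06% of all genes), so calls were no more frequent here than over all genes. Their median difference was -0.06. An unadjusted limma p under 0.05 was found for 13 of 50, against 16.1% of all genes, the share beside which the counts for the single lists can be read. The tissues did not overlap for 10 of 50, against 11.3% of all genes. The called gene was Psen2, a catalytic subunit of gamma-secretase, which read 6.16 to 6.35 in the aorta and 5.80 ± 0.147 in the ductus (SD, n = 4; -0.47 ± 0.109, limma adjusted p = 0.0460). It was not called under 15 of its 22 alternative settings or array sets, and of the fits that each leave out an array only that without ductus replicate 1 called it (-0.54, adjusted p = 0.0364). Tested among all probe sets, neither of the 2 Psen2 probe sets passed (-0.47 and -0.22). Among the 8 measured cleavage genes the others included the ADAM metalloproteases Adam10 (0.13 ± 0.123) and Adam17 (-0.02 ± 0.116), which were not called. The 4 probe sets of Adam10 ran from -0.10 to 0.81, with 3 of them higher in the ductus and 0 called. Those of Adam17 ran from -0.03 to -0.01.

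Of the 7 target genes, 0 were called by limma, and 2 had an unadjusted p under 0.05. Heyl, a target in smooth muscle, lay at 7.22 ± 0.436 in the aorta and 6.30 ± 0.284 in the ductus (SD, n = 4 each; -0.92 ± 0.224, limma adjusted p = 0.0584), and without aorta replicate 1 it was called (-1.13, adjusted p = 0.00808), as it was without ductus replicate 3 (-1.06, adjusted p = 0.0428). Nrarp, which is switched on by Notch and dampens it, lay at 9.18 ± 0.198 and 8.65 ± 0.190 without overlap (-0.53 ± 0.139, adjusted p = 0.0762), and was called as the mean of its probe sets (-0.62, adjusted p = 0.00630). Over all probe sets, 1 of the 2 Nrarp probe sets was called. Hey1 and Hey2, arterial targets, differed by 0.17 ± 0.112 and 0.02 ± 0.111, and Hes1 by -0.26 ± 0.135.

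The 13 genes of ligand and receptor traffic had 0 calls by limma and 6 with an unadjusted p under 0.05. On their brightest probe sets the ubiquitin ligases Dtx4 (-0.70 ± 0.179, limma adjusted p = 0.0691) and Neurl1a (0.89 ± 0.259, adjusted p = 0.106) had the smallest p. Both sizes rested on the choice of probe set: the 6 probe sets of Neurl1a ran from -0.06 to 0.89 and their mean gave 0.24 (adjusted p = 0.296), and the Dtx4 probe set of widest interquartile range gave -0.39 (adjusted p = 0.570). The glycosylation genes, whose enzymes add sugars to the receptor's EGF repeats, had 0 calls among 6 and 0 with an unadjusted p under 0.05, the closest being Poglut1 (-0.22 ± 0.106) and Pofut1 (-0.20 ± 0.109). The nuclear complex had 0 calls among 8 and 1 with an unadjusted p under 0.05, Spen (-0.48 ± 0.170), with Ep300 next (0.20 ± 0.0977) and Rbpj at 0.17 ± 0.129. The 3 probe sets of Rbpj ran from 0.17 to 0.56, with 0 called. Of 8 other ligands with EGF repeats or linked to Notch, 0 were called and 3 had an unadjusted p under 0.05. Egfl7, an endothelial gene, differed by -0.56 ± 0.139 (limma adjusted p = 0.0599). It was called under 8 of 22 alternatives, such as without aorta replicate 4 (-0.66, adjusted p = 0.0353). Over all probe sets, 1 of its 4 was called. Cntn6 differed by -0.81 ± 0.245 (adjusted p = 0.121), with its ductus arrays near the first quartile at 2.56 to 2.85. Aorta array 2 was its highest at 4.35, and without that array the difference was -0.54. Mfap5, which encodes a microfibril protein, was higher in every ductus array than in every aorta array (0.33 ± 0.104, adjusted p = 0.134).

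**Figure D3:**
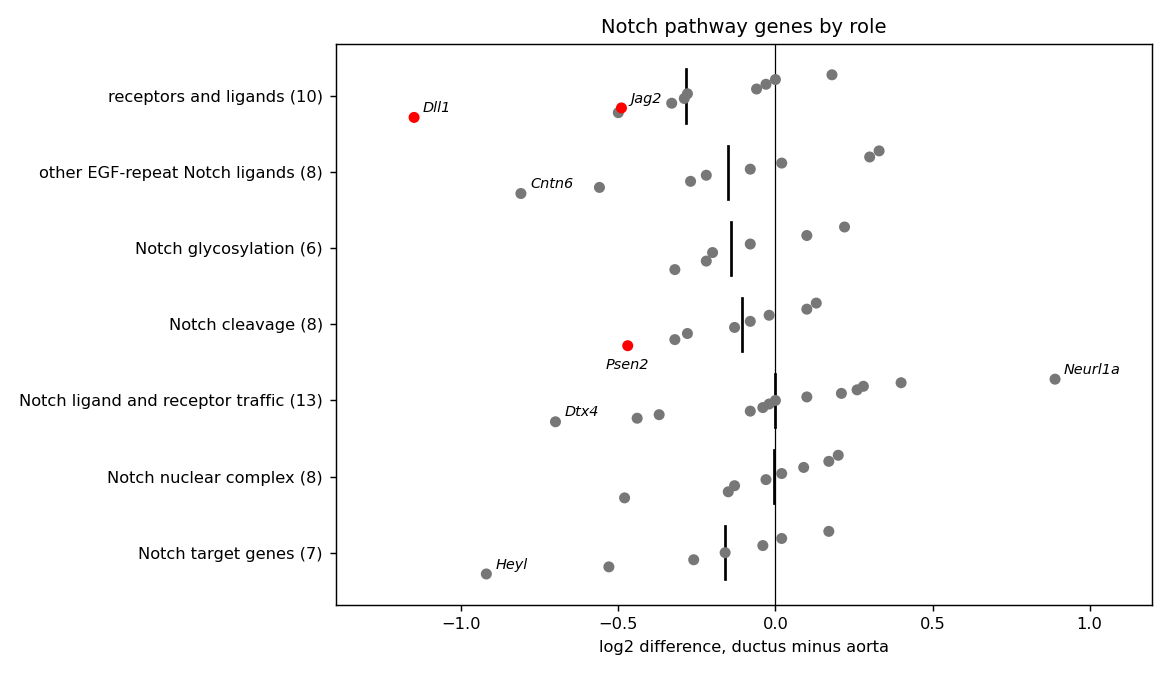
Log2 difference, ductus minus aorta, of the 10 receptors and ligands and of 50 other genes of the pathway by role, 1 point per gene, with the median of each group as a black line and called genes in red. Dll1, Jag2 and Psen2 are called, all higher in the aorta, and the group medians lie between -0.28 and 0.00.

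Markers of several cell types differed between the tissues. Endothelial markers were lower in the ductus in 14 of 16 genes, with 3 called (2.06% of all genes were called higher in the aorta) and a median of -0.65. Their mean lay between 7.14 and 7.52 in the aorta and between 6.77 and 6.93 in the ductus. Pecam1 differed by -0.63 ± 0.125 (limma adjusted p = 0.0242), Cdh5 by -0.20 ± 0.119 and Kdr by -0.76 ± 0.190 (adjusted p of 0.478 and 0.0637). The exceptions were Robo4 (0.07 ± 0.325) and Erg (0.73 ± 0.179, adjusted p = 0.0595). Erg was higher in every ductus array than in every aorta array.

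Mesothelial markers were lower in the ductus in 9 of 10 genes, against 56% of all genes, with a median of -1.67. Of the 10, 6 were called, against 2.06% of all genes called higher in the aorta. Their mean lay between 7.40 and 8.62 in the aorta and between 6.34 and 6.90 in the ductus, and Msln (-1.92 ± 0.297), Upk3b (-2.17 ± 0.365) and Upk1b (-1.43 ± 0.203) were each called. Over the aorta arrays, Dll1 and the mesothelial mean had the same order: highest on array 1 (4.75 and 8.62), then array 4 (4.56 and 8.26), array 2 (4.42 and 7.92) and array 3 (4.30 and 7.40). Over the ductus arrays they did not, since Dll1 was highest on array 4 (3.81), where the mesothelial mean was lowest (6.34). Orders of so few arrays can match by chance. The comparison of orders was not planned beforehand and was not tested.

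With the mesothelial mean as a covariate the Dll1 difference was -1.11 (limma adjusted p = 0.453), and with the endothelial mean -1.19 (adjusted p = 0.517). Those fits called 53 and 36 of all 18193 genes, against 702 without a covariate, so few genes of any kind passed in them. Neither marker mean overlapped between the tissues, so these fits can hardly separate tissue from marker level. The differences they give are poorly determined, and their shifts cannot be read as the effect of cell content. Jag2 went from -0.49 to -0.30 with the mesothelial and to -0.46 with the endothelial mean (adjusted p of 0.779 and 0.668). With the endothelial mean, Notch1 went from -0.50 to -0.59, Notch3 from -0.33 to -0.60 and Jag1 from -0.29 to -0.74. In the same fit Notch2 went from 0.18 to -0.04, turning sign, Notch4 from 0.00 to 1.06, Dll4 from -0.03 to -0.21 and Dlk1 from -0.06 to 0.49, and no member was called in it (adjusted p of 0.498 to 0.974).

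Thymocyte markers, of a tissue beside the great vessels whose cells use Notch1, were higher in the ductus in 7 of 7 measured genes, none called (smallest limma adjusted p = 0.504, 0 with an unadjusted p under 0.05). Their mean ran from 3.35 to 6.69 over the aorta arrays and from 3.85 to 7.47 over the ductus arrays. It was highest in the aorta on array 4, which was the lowest aorta array on the brightest Notch1 probe set (9.94) and the highest on the other (6.59). Its part in the differences of the members was not tested beyond leaving arrays out. Smooth muscle markers were higher in the ductus in 8 of 9 genes, 4 of them called, against 1.8% of all genes called higher in the ductus. Acta2 differed by 0.21 ± 0.124, Myh11 by 1.00 ± 0.152 and Tagln by 0.48 ± 0.157 (limma adjusted p of 0.464, 0.00623 and 0.151). The exception was Myocd (-0.01 ± 0.118). Acta2 read 11.89 to 12.32 in the aorta and 12.30 to 12.41 in the ductus, so this muscle marker was high on every array of both tissues. Of the other lists, airway epithelial markers had 2 of 9 genes called higher in the ductus (median 0.27), against 1.8% of all genes. Cartilage markers had 1 of 6 called higher in the aorta (median -0.31), against 2.06% of all genes. Limma called 0 of 6 adipocyte (0), 0 of 8 skeletal muscle (1), 0 of 6 Schwann and neuron (2), 0 of 3 erythroid (0) and 0 of 6 macrophage markers (2), the count in each bracket being that at an unadjusted p under 0.05. Over all genes 16.1% had such a p and 3.86% were called. The part of these cell types in the members' differences was not tested.

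**Figure D4:**
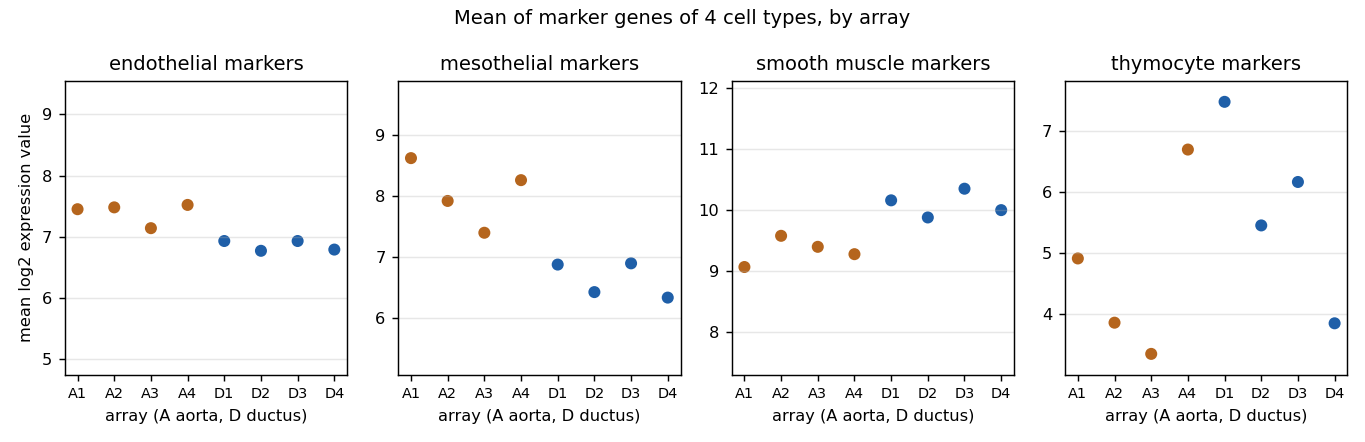
Mean log2 value of the endothelial, mesothelial, smooth muscle and thymocyte marker genes on each array, aorta in brown (A1 to A4) and ductus in blue (D1 to D4), with the same vertical span in each panel. Endothelial means are 7.14 to 7.52 in the aorta and 6.77 to 6.93 in the ductus, and thymocyte means range from 3.35 to 7.47.

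The genes whose profile over the 8 arrays was most like that of the called members were found by the root mean square distance between profiles centred on each gene's mean. For Dll1 these were Gap43 (0.204), Nhsl2 (0.215) and Mgat4a (0.217), against a root mean square of 0.629 for the Dll1 profile itself. Their differences were -1.05, -0.91 and -0.90. For Jag2 they were Saysd1 (0.0744), Hip1 (0.0874) and Zfp428 (0.0903), against 0.267 for Jag2 itself, with differences of -0.50, -0.52 and -0.42. Their likeness is a description of these 8 arrays.

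**Figure D5:**
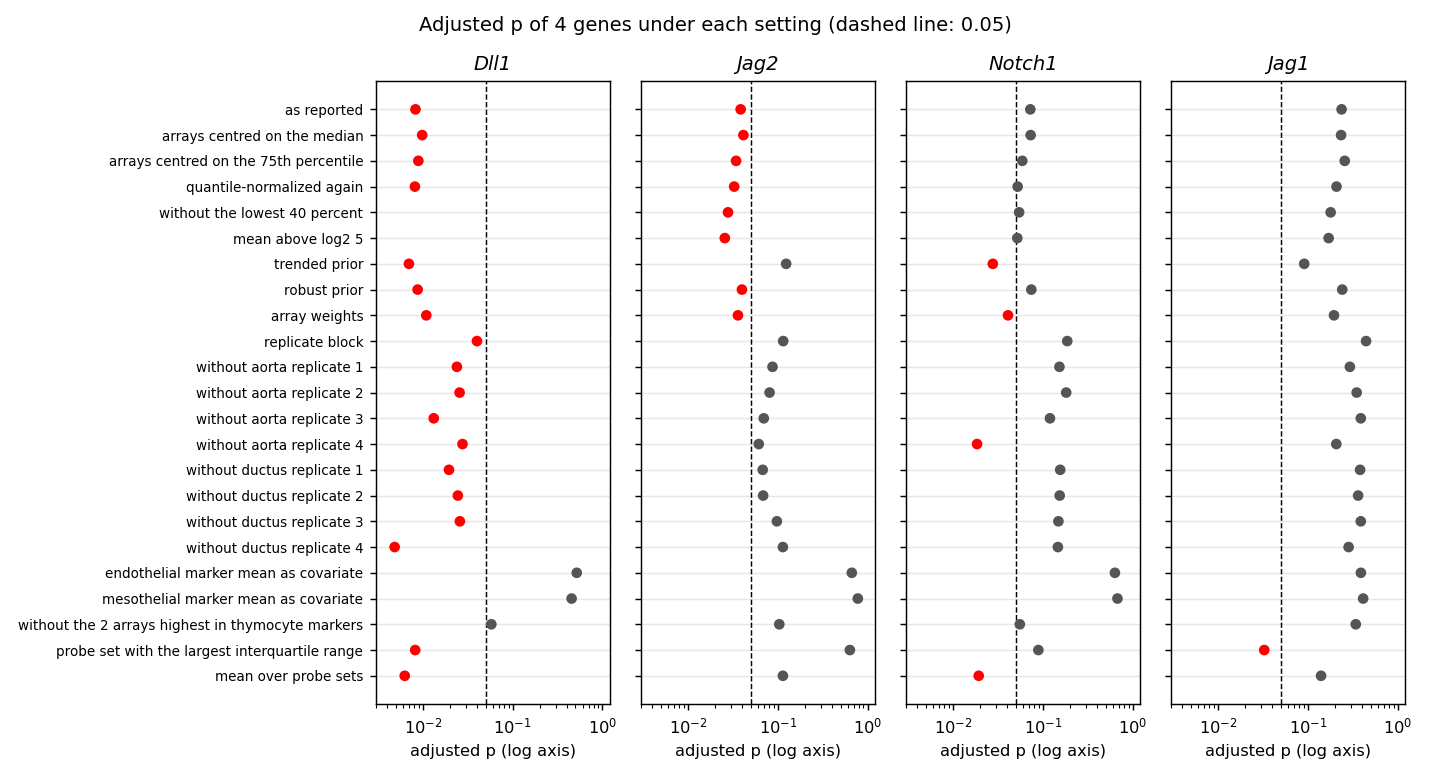
Limma adjusted p (log axis) of Dll1, Jag2, Notch1 and Jag1 as reported and under each alternative setting, with values under 0.05 in red and the threshold dashed. Dll1 is under 0.05 in every fit that leaves out a single array, and Jag2 in none of them.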

How the data were processed

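The deposited table holds log2 expression values, 1 column per array; Partek 6.6 and RMA (robust multi-array averaging) are named in the submitters' processing notes, with order and settings not given in the sources used here. Probe sets took their gene from the platform annotation, updated by gene ID through the RefSeq table (34741 of 34945 with exactly 1 symbol matched). Control probe sets (64) were left out and no filter on low values was applied. Tests used limma 3.58.1 in R 4.3.3 (lmFit, eBayes, two-sided, no covariate) over 18193 genes, 45037 probe sets or 16752 probe set pairs. On simulated arrays with 200 of 18193 genes changed, the gene test recovered 13.4% of genes changed by log2 0.5, 62.7% by 1 and 93.9% by 2, with 5 false calls in 118. The measured arrays gave 702 calls, and the adjusted p depends on how many genes differ, so these shares need not hold for them. Precision is limited by the number of arrays.

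The members and gene lists were chosen with earlier results of these data known. Genes named were all members, every called gene of the pathway lists (otherwise the 2 with the smallest p), the 3 profiles nearest to a called member and the first 3 markers of a list, with some others, such as Adam10, Hey1, Rbpj and Mfap5, added after their values were seen. Alternatives covered scaling, filters, the choice of probe set, the prior, array weights, the replicate number as a block, marker covariates, the threshold and leaving out arrays.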

Additional observations from a re-analysis of the deposited data

Results flagged for a closer look

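In 1 of 40 sets of 4 arrays (20 probe sets in 2 tissues), a single array stood far from the other 3, where chance gives about 1 in 20. This was the dimmer Jag2 probe set (1426431_at) in the ductus, at 3.56 on array 4 against 2.92 on the nearest and 2.85 on the lowest array. The gap was 0.895 of the range of the 4 arrays, above the critical value of 0.829.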

How the results depend on the processing

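No called difference of a member, a member probe set or a named pathway gene changed direction under any alternative. Dll1 kept its call under 17 of 20 alternatives (-1.31 to -1.0, adjusted p of 0.00484 to 0.517), Jag2 under 7 of 22 (-0.55 to -0.24), and Notch1, not called as reported, was called under 4 of 22. Counts of called members moved with the setting. Member genes numbered 2 as reported and 1 or 2 on leaving out single arrays. They numbered 1 without the lowest 40% of genes, with a mean above log2 5 (7 members tested, Dll1 filtered out), with the replicate block and at an adjusted p under 0.01, and 0 with either marker covariate or without the 2 arrays highest in thymocyte markers, an alternative chosen after seeing the data; they numbered 3 with array weights and at an adjusted p under 0.1. Member probe sets numbered 2 as reported, 1 or 2 on leaving out single arrays, 1 with a mean above log2 5, 3 with a trended prior, array weights or at 0.1, and 0 with the block, at 0.01, with either covariate or without those 2 arrays. Other pathway genes numbered 1 as reported and 0 or 1 on leaving out single arrays. They numbered 2 after a further quantile normalization or with each gene's probe set of widest interquartile range, 3 with either filter, array weights or the mean over probe sets, 4 with a trended prior, 5 at an adjusted p under 0.1, and 0 with the block, at 0.01, with either covariate or without those 2 arrays. Probe set pairs of a member numbered 0 throughout. The causes were not tested. Jag1 was called when its probe set with the widest interquartile range stood for it (-0.82, adjusted p = 0.0326). Deviations of arrays with the same replicate number correlated at -0.068 to -0.227 over genes, so the numbers were not taken to pair the pools. For arrays with unlike numbers the values ran from -0.247 (aorta 3 with ductus 1) to 0.342 (aorta 4 with ductus 1). Whether pools are paired in another order was not tested. With the block, 403 genes were called, Dll1 among them (limma adjusted p = 0.0400).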
